A study of Nicotiana benthamiana with 28 samples.

Results

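The sobir1/sobir1-like knockout of Nicotiana benthamiana was compared with wild type in seedlings that had not received XEG1. The comparison used the mock libraries of the series, 2 of the knockout and 2 of wild type, which are 4 of the 28 libraries in all. Libraries were taken by the genotype and treatment in their labels, and genes were kept where the mean over these 4 libraries was at least 1 TPM, a length-corrected abundance with an equal sum in each library. This left 35994 of the 59814 listed genes for testing.

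XEG1 is a glycoside hydrolase secreted by the oomycete Phytophthora sojae that attacks xyloglucan in the plant cell wall. N. benthamiana perceives it at the cell surface through RXEG1, a receptor-like protein with leucine-rich repeats and no kinase domain of its own. Such receptors depend on SOBIR1, a receptor-like kinase that sits beside them in the plasma membrane and passes the signal on, and N. benthamiana carries a close copy of it, SOBIR1-like. Without the elicitor, a comparison of the knockout with wild type asks what the loss of the adaptor does to the resting transcriptome.

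All libraries came from whole seedlings aged 12 days and sampled 3 h after treatment. The groups used were sobir1/sobir1-like with XEG1 protein, sobir1/sobir1-like with mock, rxeg1 with XEG1 protein and with mock, 4 construct lines each with XEG1 protein and with mock, wild type with XEG1 protein and wild type with mock, with 2 libraries in each. The construct lines are labelled as the rxeg1 knockout with an RXEG1syn gene driven by the RXEG1 promoter (pRXEG1). They are RXEG1synΔCT in line 1 and line 2, and one line each of RXEG1synΔ90-95/Q786AK791AΔCT and RXEG1synΔ90-95/Δ786-792ΔCT, shortened below to ΔCT line 1, ΔCT line 2, Δ90-95/Q786AK791A and Δ90-95/Δ786-792. Titles write EV where the treatment label writes mock, and both were read as the same control. The labels do not say how many independent knockout lines were used, or whether replicates were separate plants, and the p-values therefore cover no more than the spread among these libraries, which may be technical.

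Gene identifiers came without names, so neither SOBIR1 nor SOBIR1-like could be looked up to check the knockout, no marker gene of seedlings was checked, and no functional gene group was examined. TPM keeps no sequencing depth, and the depth of each library is unknown. In each library, 33443 to 37043 genes were at 1 TPM or more. In whole seedlings, fewer cells of a type and less RNA per cell cannot be told apart.

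Without XEG1, the knockout seedlings differed from wild type at few genes. Of the 35994 tested genes, 18 passed an adjusted p of 0.05 (limma's moderated test with Benjamini-Hochberg adjustment), which is 0.05% of all tested. The knockout was higher at 8 of them (0.0222%) and lower at 10 (0.0278%). Without adjustment, 1657 of the 35994 genes had a limma p under 0.05. That is a share below 0.05, so the count by itself shows no excess of small p-values. The count rests on the fit: it was 5 without knockout replicate 1, 7 without knockout replicate 2, 4 without wild type replicate 1, 7 without wild type replicate 2, 2 with only the 14 mock libraries and 111 with only the 4 compared ones. Across all tested genes the log2 difference, knockout minus wild type on the log2(TPM + 1) scale, had a median of -0.01, and 90% of genes lay between -0.40 and 0.39. The median standard error of that difference was 0.23.

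By the median absolute log2 difference, the distance between the genotypes lay between the replicate distances of knockout and wild type. The median absolute log2 difference of a gene was 0.15 between the 2 knockout libraries and 0.24 between the 2 wild type libraries. Between a knockout and a wild type library it was 0.19 to 0.21 over the 4 possible pairs. The wild type replicate distance includes a shift of whole libraries, with all-gene medians of -0.08 and 0.08 from the 4-library mean. By Pearson correlation the genotypes were farther apart than replicates. The 4 pairs had 0.9753 to 0.9787, against 0.9839 between knockout libraries and 0.9790 between wild type libraries. Knockout and wild type libraries did not overlap at 12025 genes, or 33.4% of all tested. Without any difference, 2 libraries against 2 separate this way at a share of 0.333, so the count by itself shows no excess. Absolute differences of at least 1 on the log2 scale were seen at 283 genes, of which 17 were called. Of the 24 genes past 2, 2 were called, and 4 were listed at 0 in 1 library and at 5 TPM or more in its replicate.

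**Figure D1:**
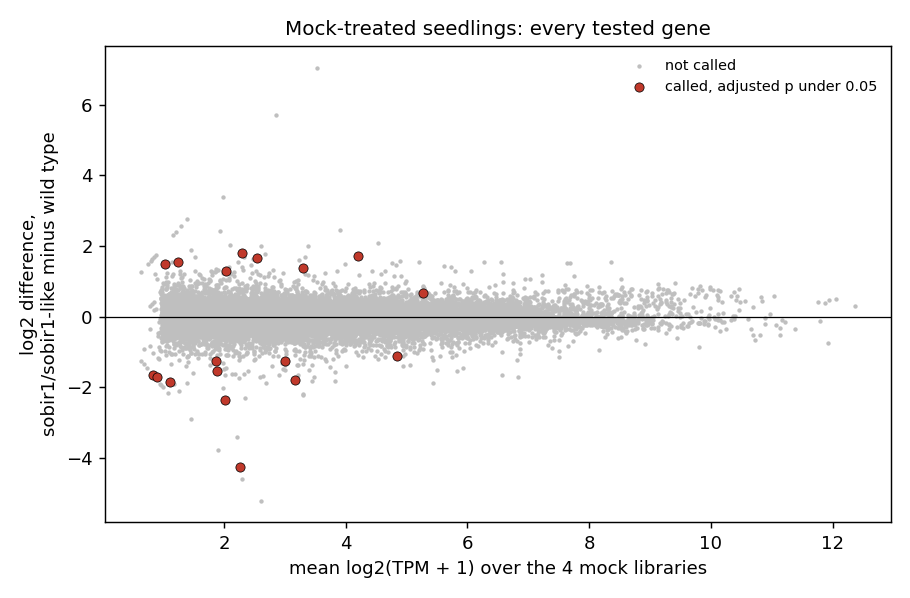
Log2 difference between sobir1/sobir1-like and wild type mock libraries (vertical axis) against the mean log2(TPM + 1) of the 4 libraries (horizontal axis), with 1 point per tested gene. The 18 called genes, in red, lie at low to moderate levels, with a mean of 1.08 to 38.6 TPM, and the bulk of the genes lies around 0.

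The plot of all tested genes shows the called genes on both sides of 0 and away from the most abundant genes. They lie on 18 different scaffolds, none sharing a scaffold with another. Their smallest absolute difference was 0.69 on the log2 scale, and at all 18 both knockout libraries lay beyond both wild type libraries (33.4% of all tested). The same 4 libraries gave the calls, so this was largely set in advance.

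The gene with the largest called difference was Niben101Scf03628g01009, which was close to undetected in the knockout. It was listed at 0 and 0.21 TPM in knockout mock libraries and at 0.14 and 0 TPM in knockout XEG1 libraries. Wild type mock libraries held 19.3 and 20.2 TPM. The fitted log2 difference in mock was -4.24 (SE 0.30, limma adjusted p = 9.00e-07), a value that depends on the pseudocount of 1 and gives no fold, since a knockout library is at 0. In the 24 libraries of the other 6 genotypes its level ran from 5.24 to 22.2 TPM.

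At these limits Niben101Scf03628g01009 stood alone. It was the 1 gene of all 59814 listed with under 0.5 TPM in the 4 knockout libraries and at least 1 TPM in the other 24. The reverse pattern, present in the 4 knockout libraries and under 0.5 TPM in all others, was met by 0 genes. Both counts turn on the limits: with under 0.1 TPM in the knockout 0 genes were left, and with 0.5 TPM in place of 1 as the upper limit the reverse pattern was met by 1 gene. The neighbours of Niben101Scf03628g01009 on the scaffold did not share the difference: 12 other genes there were tested, their log2 differences ran from -0.25 to 0.23, and 0 were called. The nearest tested genes on its 2 sides had -0.02 and -0.12. This species is allotetraploid, and the sources used here do not say how reads shared between near-identical gene copies were counted.

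Niben101Scf02435g01015 was the next of the lower genes. It had 0.51 and 1.16 TPM in knockout mock libraries, against 8.93 and 7.42 TPM in wild type mock libraries, a log2 difference of -2.34 (SE 0.22, limma adjusted p = 4.87e-05). The knockout was low with XEG1 too, at 0.99 and 0.87 TPM, against 6.30 and 6.59 TPM in wild type. The low level was shared by other genotypes: rxeg1 mock libraries had 0.61 and 0.72 TPM. ΔCT line 1 was the exception, with 12.6 and 16.5 TPM in mock libraries.

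The higher genes with the largest difference were Niben101Scf02937g06005 and Niben101Scf02316g03001. Niben101Scf02937g06005 had 7.54 and 8.83 TPM in knockout mock libraries, against 0.86 and 2.67 TPM in wild type mock libraries, a log2 difference of 1.81 (SE 0.26, limma adjusted p = 0.00711). The 20 libraries of the rxeg1 knockout and the construct lines lay between 5.15 and 10.4 TPM, and wild type stood apart from all other genotypes. The call did not hold without single libraries, with an adjusted p of 0.110 without knockout replicate 1, 0.148 without knockout replicate 2 and 0.257 without wild type replicate 1.

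Niben101Scf02316g03001 had 31.4 and 32.9 TPM in knockout mock libraries, against 7.04 and 11.7 TPM in wild type mock libraries, a log2 difference of 1.71 (SE 0.21, limma adjusted p = 0.00192). Without wild type replicate 1 the adjusted p was 0.0538. The knockout with XEG1 had 27.4 and 28.9 TPM. In rxeg1 mock libraries it had 32.9 and 25.6 TPM, while ΔCT line 1 was near wild type with 10.98 and 11.9 TPM.

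**Figure D2:**
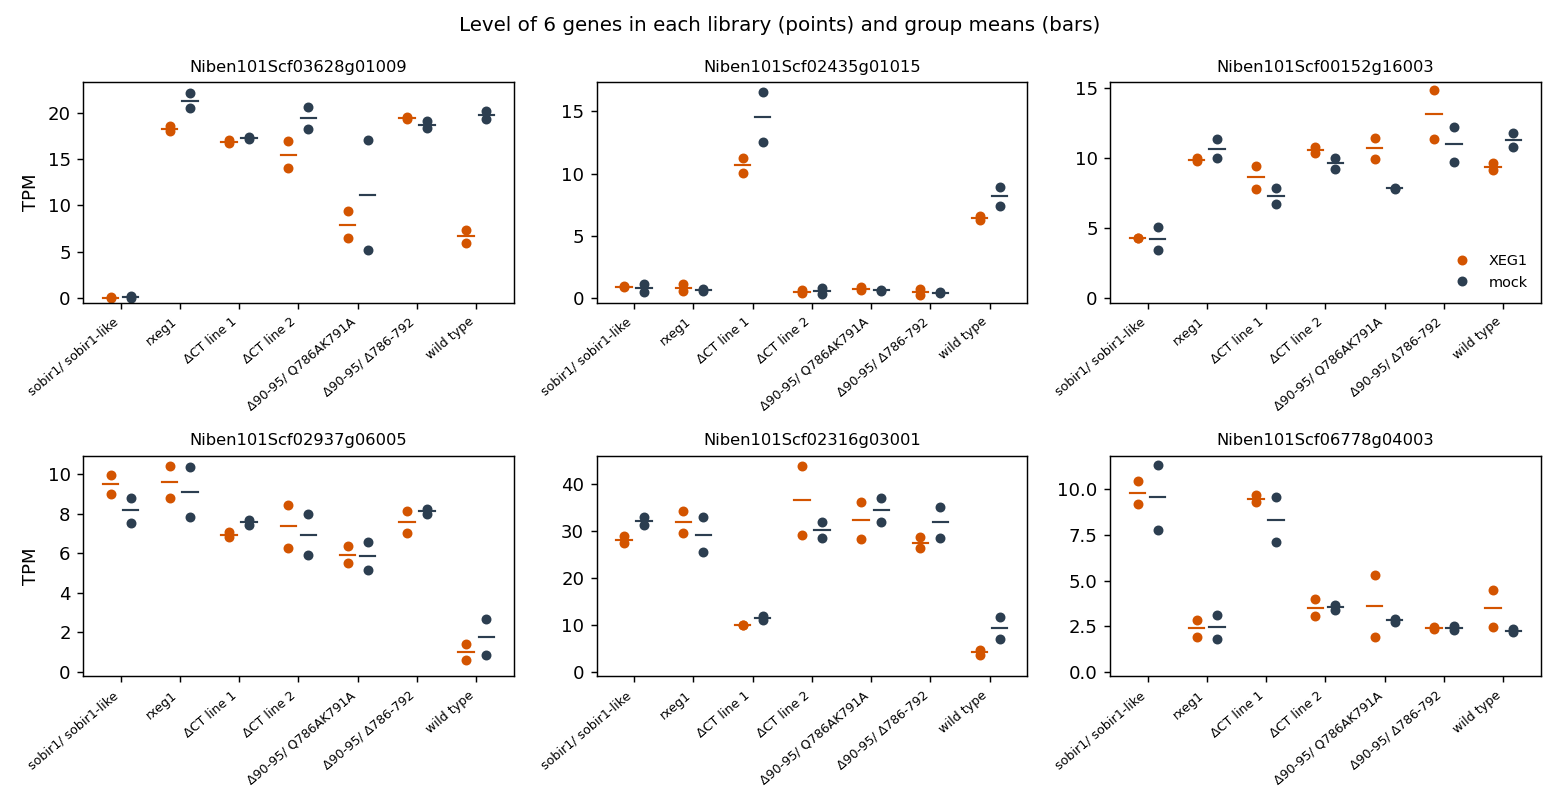
TPM of 6 genes in each library (points, XEG1 in orange and mock in dark blue) and the mean of each group of 2 (bars), by genotype from sobir1/sobir1-like at the left to wild type at the right. Niben101Scf03628g01009 is near 0 in the knockout alone, while the levels of Niben101Scf02937g06005 are 5.15 TPM or more in every genotype but wild type.

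The plot of TPM by genotype shows 2 kinds of difference between the knockout and wild type. At Niben101Scf03628g01009 and Niben101Scf00152g16003 the knockout lay below every other genotype, and at Niben101Scf02937g06005 wild type did. Beside the 4 genes described above, the other 6 higher genes had log2 differences from 0.69 to 1.67, and the other 8 lower genes from -1.86 to -1.10.

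The XEG1 libraries of the knockout and wild type share no library with the mock comparison and were read at the same 18 genes. Both comparisons come from the same fit and share each gene's estimate of spread, so their calls are not independent tests. In the XEG1 comparison 17843 of the tested genes were called (49.6% of all tested), 13702 higher in the knockout (38.1%) and 4141 lower (11.5%). Wild type itself differed between XEG1 and mock at 17582 genes (48.8% of all tested). With each library scaled by its median ratio, the split was 6551 higher and 7719 lower, and the median log2 difference of all genes was -0.02 instead of 0.41. Of the 18 genes, 14 were called in the same direction as in mock, 7 of the 8 higher genes and 7 of the 10 lower ones. With median-ratio scaling these were 6 higher and 7 lower genes, where 18.2% of all tested genes were called higher and 21.4% lower.

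The 3 genes whose sign turned with XEG1 in TPM without scaling, named after their values were seen, were Niben101Scf03108g10001, Niben101Scf04388g02007 and Niben101Scf07508g04003. With median-ratio scaling, 16 of the 18 genes kept their sign. Niben101Scf03108g10001 was called the other way with XEG1, with a log2 difference of 1.70 against -1.10 in mock. It had 17.6 and 18.7 TPM in knockout XEG1 libraries and 17.4 and 19.8 TPM in knockout mock libraries, at much the same level under both treatments. Wild type fell to 4.80 and 5.01 TPM with XEG1, against 43.3 and 38.7 TPM in mock. Niben101Scf04388g02007 had -0.21 with XEG1 and 1.50 in mock, and Niben101Scf07508g04003 had 0.11 with XEG1 and -1.26 in mock. Neither was called with XEG1. At 6 of the 18 genes the difference between the genotypes itself differed between XEG1 and mock (limma interaction), a share near the 29.4% of all tested.

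Against wild type mock, the knockout libraries that received XEG1 gave values free of the wild type response, although this comparison shares the 2 wild type mock libraries with the first. It called 17 genes (0.0472% of all tested), 5 higher (0.0139%) and 12 lower (0.0333%). The 18 genes all had the sign they had in mock, and at all 18 both knockout XEG1 libraries lay beyond both wild type mock libraries on that side (22.3% of all tested). The same wild type mock libraries chose the 18, so part of this was set in advance and the share is no like base. Some passed the 1 TPM filter only through the group where they were high. An example, picked after its values were seen, is Niben101Scf01253g01004, with 0 and 0 TPM in knockout mock and 2.61 and 1.72 TPM in wild type mock libraries. Of the 18 genes, 13 were called, 5 higher and 8 lower. The median absolute log2 difference of the 18 was 1.53 with knockout XEG1 libraries and 1.59 with knockout mock libraries. The genes with the largest called differences were Niben101Scf03628g01009 (log2 difference -4.28, adjusted p = 7.63e-07), Niben101Scf02435g01015 (-2.24), Niben101Scf02937g06005 (2.01) and Niben101Scf06778g04003 (1.73), by limma. The call of Niben101Scf02937g06005 was lost without wild type replicate 1 or either knockout XEG1 library, and that of Niben101Scf06778g04003 without any 1 of the 4 libraries, with adjusted p of 0.0522 to 0.523.

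Between knockout XEG1 and knockout mock libraries limma called 0 of the 35994 genes (0%), with 552 at an unadjusted p under 0.05, a share below 0.05. The count rests on the fit. A replicate block, added after seeing the data, gave 0 in the fit of all libraries and 989 with only the compared groups. A count of 0 therefore does not show that the knockout had no response. The log2 differences of the 18 genes ran from -0.85 to 0.73.

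**Figure D3:**
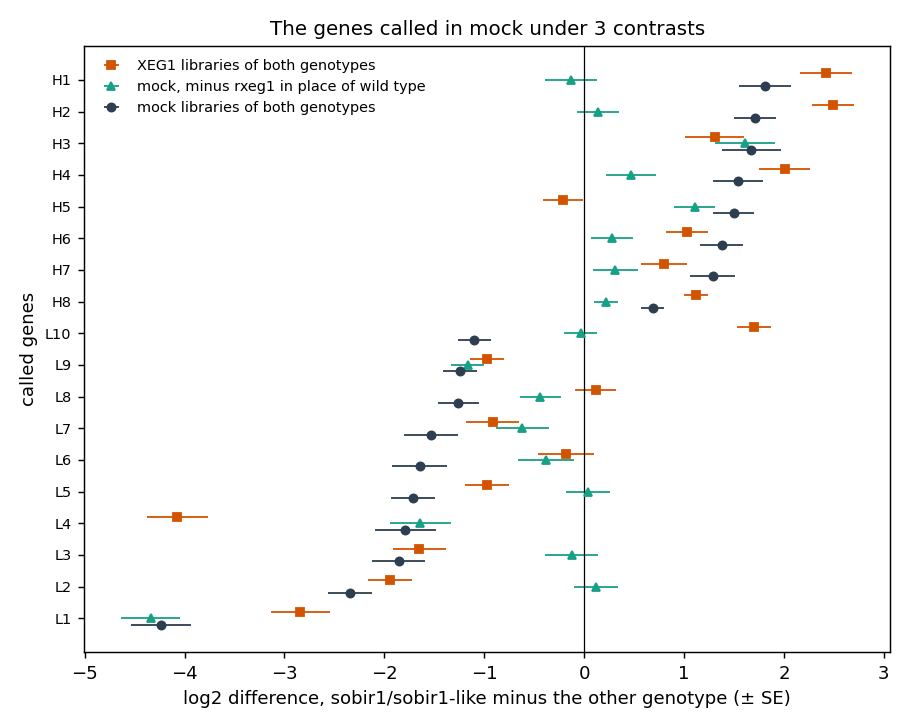
Log2 difference with its standard error for the 18 called genes (H1 to H8 higher and L1 to L10 lower in the knockout, numbered by size), from XEG1 libraries of both genotypes (orange squares), from knockout mock minus rxeg1 mock libraries (green triangles) and from mock libraries of both genotypes (dark circles). Squares keep the side of the circles at 15 genes, while most triangles lie nearer to 0.

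In the plot of the 3 comparisons, H1 is Niben101Scf02937g06005, H2 Niben101Scf02316g03001, H3 Niben101Scf06778g04003, L1 Niben101Scf03628g01009, L2 Niben101Scf02435g01015 and L9 Niben101Scf00152g16003. The triangles replace wild type with rxeg1, the knockout of the receptor, and use no wild type library. They show how much of each difference also separates the 2 knockouts.

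Directly against rxeg1, the sobir1/sobir1-like knockout differed in mock at 4 genes (0.0111% of all tested), 2 higher (0.00556%) and 2 lower (0.00556%). An unadjusted limma p under 0.05 was reached by 642 genes, a share of all tested below 0.05. Both genes called lower than in rxeg1 were among the 18. Niben101Scf03628g01009 had 0 and 0.21 TPM in the sobir1/sobir1-like knockout, against 22.2 and 20.5 TPM in rxeg1 (fitted log2 difference -4.34, limma adjusted p = 6.00e-07). Niben101Scf00152g16003 had 3.42 and 5.09 TPM in the sobir1/sobir1-like knockout, against 11.3 and 10.02 TPM in rxeg1 (log2 difference -1.17, SE 0.17, adjusted p = 0.0154). Its wild type mock libraries, at 10.7 and 11.8 TPM, were close to those of rxeg1, and knockout XEG1 libraries had 4.29 and 4.30 TPM. With only the 14 mock libraries its adjusted p against rxeg1 was 0.4185, and it was not called in a fit of only the compared groups. With median-ratio scaling the adjusted p of Niben101Scf00152g16003 was 0.112, and without knockout replicate 1, rxeg1 replicate 1 or rxeg1 replicate 2 it lay between 0.103 and 0.531.

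The 2 genes higher than in rxeg1 did not differ from wild type beyond the test's threshold. Niben101Scf05044g00015 had 12.2 and 7.33 TPM in the sobir1/sobir1-like knockout and 1.77 and 1.50 TPM in rxeg1 (log2 difference 1.99, SE 0.26, limma adjusted p = 0.00713). Wild type mock libraries lay between these groups with 5.89 and 4.35 TPM. Niben101Scf06509g03008 had 8.66 and 7.19 TPM in the sobir1/sobir1-like knockout and 2.73 and 2.28 TPM in rxeg1 (log2 difference 1.35, adjusted p = 0.0131), with 7.89 and 5.89 TPM in wild type. Both calls were lost without rxeg1 replicate 1, without rxeg1 replicate 2 and without knockout replicate 1, with adjusted p of 0.103 to 0.387. With median-ratio scaling the adjusted p of Niben101Scf06509g03008 was 0.0700. With only the 14 mock libraries it was 0.1895 for Niben101Scf06509g03008 and 0.101 for Niben101Scf05044g00015. A pseudocount of 0.1 gave 0.262 for Niben101Scf05044g00015. Neither gene was called in a fit of only the compared groups.

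The remaining 16 of the 18 genes were not called against rxeg1. The nearest to the threshold were Niben101Scf06778g04003 (log2 difference 1.61), Niben101Scf03816g01001 (-1.64) and Niben101Scf04388g02007 (1.11), named after their values were seen, each with a limma adjusted p of 0.15. Niben101Scf06778g04003 had 7.77 and 11.3 TPM in the knockout mock libraries, 9.55 and 7.10 TPM in ΔCT line 1, 1.82 and 3.11 TPM in rxeg1 and 2.34 and 2.18 TPM in wild type. A missed threshold with 2 libraries a group does not show that 2 levels are equal.

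The rxeg1 knockout itself differed from wild type in mock at 17 genes (0.0472% of all tested), 5 higher (0.0139%) and 12 lower (0.0333%). Both comparisons use the same wild type mock libraries. Side by side, 6 of the 18 genes were also called for rxeg1 minus wild type, and at 15 of the 18 both rxeg1 mock libraries lay beyond both wild type mock libraries on the side of the sobir1/sobir1-like knockout (21.8% of all tested). At Niben101Scf02937g06005 the log2 difference from wild type was 1.81 for the sobir1/sobir1-like knockout and 1.94 for rxeg1. At Niben101Scf02435g01015 it was -2.34 for the sobir1/sobir1-like knockout and -2.46 for rxeg1.

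**Figure D4:**
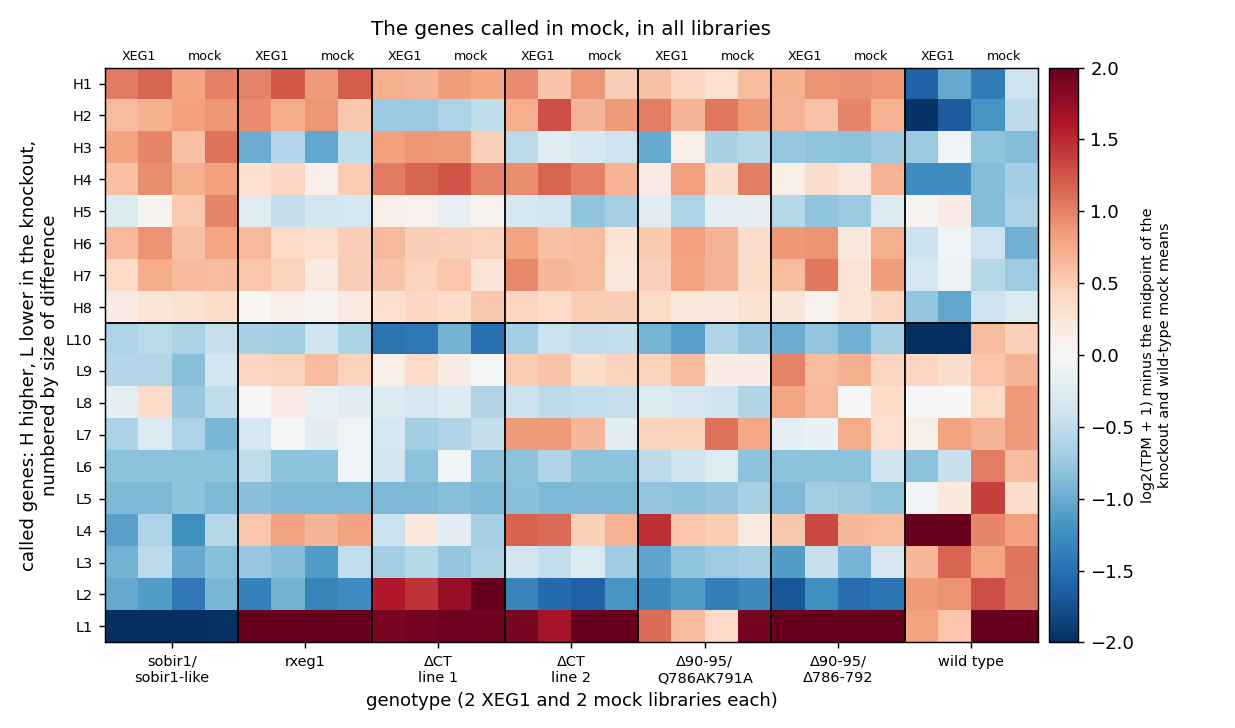
Log2(TPM + 1) of the 18 called genes (rows, H1 to H8 higher and L1 to L10 lower in the knockout) in all 28 libraries (columns, by genotype and treatment), minus the midpoint of the knockout and wild type mock means, with the colour limited to -2 and 2. At 11 genes all 10 mock libraries of the rxeg1 knockout and its construct lines lie on the knockout side of wild type mock, and L1 is far below the midpoint in the knockout alone.

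The map of all libraries shows how the other genotypes divide. At 15 of the 18 genes at least 8 of the 10 mock libraries of the rxeg1 knockout and its construct lines lay beyond both wild type mock libraries on the knockout side, 7 higher and 8 lower genes (35.5% of all tested). At 11 genes all 10 did (10.5% of all tested). These counts rest on the wild type mock libraries that also chose the 18 genes. All 20 libraries of these lines were nearer to the knockout than to wild type at 9 genes, and all 20 were nearer to wild type at 1, Niben101Scf03628g01009. Nearness was read from the midpoint of the mock means that also chose the 18 genes. Its share over all tested genes was not computed, so these counts only describe the map. ΔCT line 1 differed from the other lines at single genes, among them Niben101Scf02435g01015, Niben101Scf02316g03001 and Niben101Scf06778g04003. The knockout mock libraries lay beyond all 10 of these mock libraries at 4 of the 18 genes (1.84% of all tested).

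Against the mean of the 5 mock groups with the rxeg1 background, the sobir1/sobir1-like knockout was called different at 10 genes (0.0278% of all tested), 7 higher (0.0194%) and 3 lower (0.00833%). An unadjusted limma p under 0.05 was reached by 3186 genes, here a share of all tested above 0.05. Of the 18 genes, 3 were among the 10 called: Niben101Scf04388g02007 higher, and Niben101Scf03628g01009 and Niben101Scf00152g16003 lower. Niben101Scf00152g16003 had a log2 difference of -0.97 there (limma adjusted p = 0.00349). With only the 14 mock libraries, and with only the compared groups, Niben101Scf03628g01009 was the 1 gene still called. Every other call of this comparison was lost in both fits.

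Other genes of that comparison had levels in the knockout that were nearer to wild type. Niben101Scf03925g01009 had 18.5 and 25.4 TPM in knockout mock libraries, against 2.29 to 14.8 TPM in the 10 mock libraries with the rxeg1 background (log2 difference 1.92, limma adjusted p = 6.08e-04), and 31.5 and 33.5 TPM in wild type. Niben101Scf03804g03007 had 15.2 and 16.5 TPM in the knockout, against 3.10 to 13.1 TPM in the rxeg1 background (1.27, adjusted p = 6.08e-04), and 21.9 and 17.8 TPM in wild type. Niben101Scf11214g00007 had 5.36 and 1.84 TPM in the knockout, against 8.05 to 24.5 TPM in the rxeg1 background (-1.85, adjusted p = 0.00657), and 1.91 and 1.97 TPM in wild type. The 10 libraries did not overlap those of the knockout at these 3 genes, but the lines differed. In ΔCT line 1 the mock libraries were the nearest to the knockout, with 14.8 and 11.9 TPM at Niben101Scf03925g01009, 13.1 and 12.1 TPM at Niben101Scf03804g03007 and 8.64 and 8.05 TPM at Niben101Scf11214g00007. Without knockout replicate 2 their adjusted p was 0.123 for Niben101Scf03925g01009, 0.0608 for Niben101Scf03804g03007 and 0.935 for Niben101Scf11214g00007.

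A list of genes that rise with XEG1 was read in the mock-treated seedlings, chosen after seeing the data. It holds the 3090 tested genes that were higher by at least 1 on the log2 scale in wild type XEG1 libraries than in the 5 mock groups with the rxeg1 background (limma, adjusted p under 0.05). The contrast that picks the list has none of the 4 libraries compared and no sobir1/sobir1-like library on either side, although those libraries enter the filter on low values and the spread of the fit. A gene that wild type holds higher with or without XEG1 enters the list too. In mock, 3 of its genes were called lower in the knockout and 0 higher (0.0971% of the list, against 0.05% of all tested). They are named here after their values were seen. Niben101Scf02435g01015 and Niben101Scf02156g03022 did not rise in wild type, with log2 differences of -0.30 and -0.02 for XEG1 minus mock. Niben101Scf03816g01001 did, with 2.33.

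Small differences in these genes ran mostly 1 way. The median log2 difference in mock was -0.18 in the list and -0.01 in all tested genes, and 79.9% of the list was lower in the knockout, against 51.5% of all tested. Without knockout replicate 1 the median of the list was -0.11. Libraries did not overlap, with the knockout lower, at 1237 genes of the list (40.03%, against 17.2% of all tested), and with the knockout higher at 152 (4.92%, against 16.2%). Genes of a list are not replicates, so such shares rest on 2 libraries against 2. By library, the list median from the 4-library mean was -0.15 and -0.02 in knockout mock and 0.09 and 0.10 in wild type mock. Medians of all tested genes were -0.02 and 0.01 in knockout mock, and -0.08 and 0.08 in wild type mock. The list summed to 6.08% and 6.57% of TPM in knockout mock libraries, against 7.96% and 7.48% in wild type mock libraries. It summed to 7.16% and 8.10% in knockout XEG1 libraries, against 33.2% and 35.3% in wild type XEG1 libraries.

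The same list in rxeg1 mock libraries summed to 6.06% and 6.65% of TPM. The median log2 difference was -0.01 for the sobir1/sobir1-like knockout minus rxeg1, and -0.17 for rxeg1 minus wild type. These 2 values are a description, since the rxeg1 mock libraries are among those in which the listed genes had to be low, and rxeg1 minus wild type also uses the same wild type mock libraries. For knockout XEG1 minus wild type mock libraries the median was 0.00. It was 0.18 for knockout XEG1 minus knockout mock libraries, against 0.004 in all tested genes. By summed TPM, the knockout XEG1 libraries lay on both sides of the 2 wild type mock libraries.

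**Figure D5:**
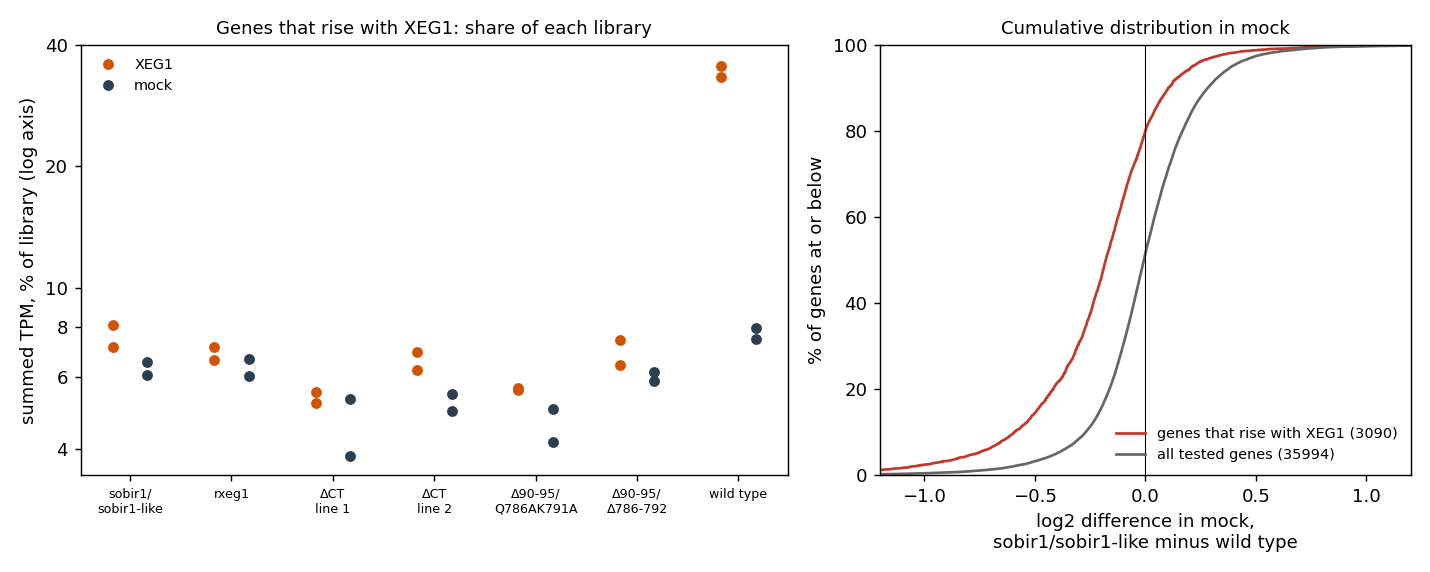
Left, summed TPM of the 3090 genes that rise with XEG1, as a percentage of each library on a log axis, by genotype from sobir1/sobir1-like at the left to wild type at the right. Right, the cumulative distribution of the log2 difference between knockout and wild type mock libraries for these genes (red) and for all 35994 tested genes (grey), with 79.9% of the red and 51.5% of the grey curve at or below 0.

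The plot of summed TPM shows the 2 wild type XEG1 libraries far above all others and the knockout mock libraries below both wild type mock libraries. The knockout mock libraries overlap those of rxeg1. A list of 7940 genes that fall with XEG1, defined in the same way, had a median log2 difference of 0.09 in mock. In it, 4 genes were called higher in the knockout and 2 lower (0.0756% of the list, against 0.05% of all tested). Libraries did not overlap, with the knockout higher, at 27.8% of this list (16.2% of all tested), and with it lower at 10.04% (17.2%). The falling list summed to 26.9% and 25.6% of TPM in knockout mock libraries, against 24.03% and 22.7% in wild type mock libraries.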

How the data were processed

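Per the labels' protocols, total RNA of seedlings was made into RNA-seq libraries with an MGIEasy kit, and the submitters' processing notes name HISAT2 2.0.4, a spliced aligner. TPM values of all genes were deposited by the authors, library by library. The genome build, annotation and quantifier were not given in the sources used here. Each list sums to 1e+06, so depth is unknown and no counting interval can be given. A combined file with the same values was not used.

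Values were taken as log2(TPM + 1), which understates changes of low genes. A fit of 14 group means to all 28 libraries (14 residual degrees of freedom) with limma's moderated test, using a mean-variance trend and robust shrinkage, gave every comparison, with Benjamini-Hochberg adjustment over 35994 genes. Differences are knockout minus the other group. An exact permutation test of 2 against 2 libraries cannot go below p = 0.333 and was not used. A listed 0 can be a failed estimate.

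Named genes are, in each comparison, the called ones with the largest difference among those with a mean log2(TPM + 1) above 1 and libraries that do not overlap, at most 2 higher and 2 lower because identifiers came without names. Those of the XEG1 comparison are not printed, and genes named outside this rule are said to be. The comparison, its genes and the lists were chosen with earlier results of these data known. The fit was tested on simulated data. Software was limma 3.58.1 in R 4.3.3, with statmod 1.5.0, version 1.17.8 of data.table and matplotlib 3.10.9.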

Additional observations from a re-analysis of the deposited data

Results flagged for a closer look

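At 6 of the 18 genes called in mock, the difference between knockout and wild type itself differed between XEG1 and mock libraries (limma interaction, adjusted p under 0.05). Of all tested genes 29.4% did so, a share near that of the 18, so the count does not set the called genes apart. The change in the log2 difference, XEG1 minus mock, was 2.80 for Niben101Scf03108g10001, 1.46 for Niben101Scf01253g01004, 1.40 for Niben101Scf03628g01009 and 1.37 for Niben101Scf07508g04003. It was -2.28 for Niben101Scf03816g01001 and -1.71 for Niben101Scf04388g02007. At Niben101Scf03628g01009 the knockout was near 0 under both treatments, while wild type had 7.38 and 6.003 TPM with XEG1 and 19.3 and 20.2 TPM in mock. At Niben101Scf03816g01001 the knockout had 3.21 and 4.82 TPM with XEG1 and 2.83 and 5.02 TPM in mock, while wild type had 75.6 and 89.9 TPM with XEG1 and 16.6 and 14.7 TPM in mock.

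Among the genes named against the rxeg1 background, the same quantity was 1.99 for Niben101Scf05044g00015, -1.12 for Niben101Scf03925g01009 and -3.78 for Niben101Scf11214g00007.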

How the results depend on the processing

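For knockout minus wild type in mock, 18 genes were called. Other settings gave 11 with the 1 TPM filter taken over 28 libraries, 111 with only the 4 compared libraries (16 of the 18 among them), 16 with only the 8 libraries of both genotypes (8 of the 18 among them, 2 higher and 14 lower), 2 with only the 14 mock libraries, and 4 to 7 when 1 of the 4 libraries was left out. A fit without the libraries of ΔCT line 2, chosen after seeing the data, gave 11. Niben101Scf03628g01009 and Niben101Scf02435g01015 were called in each of these fits. For XEG1 libraries, 8480 genes were called with a log2 threshold of 1 and 12299 to 15137 without 1 library. For knockout XEG1 minus wild type mock, the counts were 9 with the filter over 28 libraries and 3 to 7 without 1 library. Against rxeg1 they were 8 with no filter on low values, 1 with the 14 mock libraries and 1 to 6 without 1 library. Against the 5 groups they were 21 with no filter, 1 with only the compared groups, 1 with the 14 mock libraries and 5 to 15 without 1 library. The median of the list that rises with XEG1 was -0.30 for a list with a log2 difference of at least 3, and -0.24 to -0.11 without 1 library. The cause of these shifts was not tested.

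Replicate numbers are shared across groups, but the labels tie them to no batch or day and 2 numbers are too few to check it, so they were not taken as pairing. Deviations of same-numbered libraries correlated at 0.06 between knockout and wild type mock, and at -0.18 to 0.36 between knockout mock and each of the 13 other groups, over 0.1 for 7 of them. With a replicate block in the fit of all libraries, 25 genes were called in mock, all 18 among them, and 24 against the 5 groups. With a replicate block and only the compared groups, 1035 genes were called in mock, 136 for knockout XEG1 minus wild type mock, 78 against rxeg1 and 1 against the 5 groups. For knockout XEG1 minus knockout mock, where 0 were called, a block added after seeing the data gave 0 in the fit of all libraries and 989 with only the compared groups.

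Of 316 values of named genes under other settings, 267 kept direction and call, 49 kept direction and passed the threshold no more, and 0 turned. Where a group was left with 1 library, its spread was taken from the remaining groups.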
